A study of Mus musculus with 15 samples.

Results

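Wnt target and feedback genes report, from inside a hepatocyte, how strongly the cell is reading Wnt. The 10 genes followed here were chosen by name as Wnt targets, feedback regulators and nuclear effectors of the pathway, by a rule that uses no measured value, although earlier results of these data were known when the set was proposed. They are Axin2, Lgr5, Tbx3, Nkd1, Rnf43, Znrf3, Sp5, Notum, Tcf7l2 and Ctnnb1. All 10 are among the 55984 gene symbols counted, and 9 of them are among the 17488 genes that passed the filter on low counts and were tested, the exception being Sp5.

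In the liver, Wnt ligands and R-spondins released by endothelial cells of the central vein act on the hepatocytes around it. A Wnt ligand bound to Frizzled and LRP receptors stops the destruction complex from degrading beta-catenin, the protein made from Ctnnb1, which then binds TCF factors such as the product of Tcf7l2 and switches on target genes. Several of these targets feed back: Axin2 and Nkd1 act inside the cell against the signal, Rnf43 and Znrf3 remove Frizzled receptors from the cell surface, Notum inactivates the ligands, and Lgr5 binds R-spondins and thereby protects the receptors from Rnf43 and Znrf3.

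Hepatocytes were isolated from the livers of adult male wild-type C57BL/6JJcl mice, stained with the DNA dye Hoechst and sorted by ploidy, so that strain, genotype, sex and tissue are shared by every group. The 2n-whole population holds diploid cells, the 4n-whole population all tetraploid cells, and the tetraploid gate was also divided into 4n-top, with a higher peak of the Hoechst signal and enriched for mononucleated cells, and 4n-bottom, with a lower peak and enriched for binucleated cells. Both are enrichments and not pure populations, and 4n-top, sequenced after 1 sort, still contained many binucleated cells. There were 15 libraries from 4 mice, with all 4 mice in 2n-whole, 4n-whole and 4n-bottom and mice 2, 3 and 4 in 4n-top. By the study's supplement, the 4n-top sample numbered 1 was left out because its RNA was of poor quality. Each library is sorted cells of 1 mouse. By the study's methods, 2n cells were spun down at a higher speed than 4n cells after the sort, which cannot be told apart from ploidy in any comparison with 2n-whole.

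Levels are given as CPM, counts scaled to a common library total after TMM normalization, which adjusts the totals for their composition. Total counts per library ranged from 22049498 to 42096421, at which 3 counts correspond to 0.0713 to 0.136 CPM, a floor that covers counting error only. Hepatocyte identity was visible in every library, with 10 hepatocyte markers summing to between 95200 and 128000 CPM. Against this, 14 endothelial markers summed to 16.7 to 23.9 CPM in 2n-whole, 6.26 to 34.8 in 4n-whole, 6.26 to 26.4 in 4n-bottom and 6.9 to 19.8 in 4n-top. The sum of 12 macrophage markers was 0.764 to 10.7 CPM in 2n-whole (median 6.16) and 1.39 to 3.61 in 4n-whole (median 1.68). It was 0.748 to 4.44 CPM in 4n-bottom (median 2.82) and 0.625 to 2.98 in 4n-top (median 1.39). The 8 cholangiocyte markers were higher in 2n-whole, at 8.93 to 16.2 CPM, than in 4n-whole, at 1.48 to 2.24 CPM. In that list, Spp1 passed the test in 4n-whole, 4n-bottom and 4n-top against 2n-whole. Mitochondrial genes took 20.5 to 26.2% of the counts in 2n-whole, 8.84 to 18.5% in 4n-whole, 12.2 to 23.6% in 4n-bottom and 11.9 to 13.0% in 4n-top. The part of these other cell types in the results was not tested, and in bulk RNA fewer expressing cells and less RNA per cell cannot be told apart.

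Since beta-catenin reaches DNA through TCF factors, the start sites of the 10 genes were searched for the 4 TCF core words, CTTTG followed by any pair of A or T, on both strands, from 250 bases before to 50 bases after the canonical GENCODE M39 start in GRCm39. The words differ only in their last letters and were not set against any other motif. Of 21770 promoters of protein-coding genes, 3567 (16.38%) held at least 1 of the 4 words, and 4 of the 10 Wnt genes (40.0%) did. These 4 windows are printed because they are where a TCF word lies next to a gene whose level is reported, 5′ to 3′ on the strand of the gene with the word in capitals. Axin2 lies on the plus strand at chr11:108811388-108811687, Nkd1 on the plus strand at chr8:89247675-89247974, Sp5 on the plus strand at chr2:70305017-70305316 and Notum on the minus strand at chr11:120551970-120552269.
Axin2: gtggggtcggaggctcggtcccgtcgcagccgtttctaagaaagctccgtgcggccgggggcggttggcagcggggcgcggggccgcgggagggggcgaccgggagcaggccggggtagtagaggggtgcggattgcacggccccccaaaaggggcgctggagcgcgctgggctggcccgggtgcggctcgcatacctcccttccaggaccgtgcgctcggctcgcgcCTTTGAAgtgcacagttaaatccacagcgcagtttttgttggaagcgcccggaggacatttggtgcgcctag
Nkd1: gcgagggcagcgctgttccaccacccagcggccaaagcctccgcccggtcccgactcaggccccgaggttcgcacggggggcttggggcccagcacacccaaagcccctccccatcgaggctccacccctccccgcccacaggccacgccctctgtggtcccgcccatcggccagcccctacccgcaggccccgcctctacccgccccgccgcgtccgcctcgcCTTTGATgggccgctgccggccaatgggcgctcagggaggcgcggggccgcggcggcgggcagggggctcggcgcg
Sp5: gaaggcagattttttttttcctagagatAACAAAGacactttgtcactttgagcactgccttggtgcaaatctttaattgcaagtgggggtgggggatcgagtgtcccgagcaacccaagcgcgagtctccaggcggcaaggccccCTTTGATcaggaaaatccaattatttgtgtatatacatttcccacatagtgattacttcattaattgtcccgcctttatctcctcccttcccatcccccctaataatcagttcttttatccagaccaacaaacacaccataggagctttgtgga
Notum: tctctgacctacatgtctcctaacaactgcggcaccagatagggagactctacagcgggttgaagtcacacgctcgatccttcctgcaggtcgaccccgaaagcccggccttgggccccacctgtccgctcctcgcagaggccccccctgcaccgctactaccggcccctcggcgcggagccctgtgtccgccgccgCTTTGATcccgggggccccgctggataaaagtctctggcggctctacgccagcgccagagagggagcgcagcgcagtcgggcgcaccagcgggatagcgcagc
The first base of the word stood at position -22 from the start in Axin2, -26 in Nkd1 and -53 in Notum. Sp5 held a pair of words, the reverse complement AACAAAG at -222 and CTTTGAT at -104. A match is a run of letters and not a measured binding site. Lgr5, Tbx3, Rnf43, Znrf3, Tcf7l2 and Ctnnb1 had none of these words in this window, which says nothing about their control elsewhere.

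The 10 loci are spread over the genome. In GRCm39, Axin2 occupies chr11:108811169-108841609 (plus strand), Rnf43 chr11:87553548-87626377 (plus), Znrf3 chr11:5226324-5394939 (minus) and Notum chr11:120541446-120552019 (minus), so 4 of the 10 lie on chromosome 11. Lgr5 is at chr10:115286216-115423685 (minus), Tbx3 at chr5:119806298-119822797 (plus), Nkd1 at chr8:89247890-89324577 (plus) and Sp5 at chr2:70305267-70308073 (plus). Tcf7l2 is at chr19:55730188-55922091 (plus) and Ctnnb1 at chr9:120757422-120789579 (plus). The deposited counts are given per gene. GENCODE M39 has other genes overlapping each of these loci, among them Tbx3os1 and Tbx3os2 opposite Tbx3, and Notumos opposite Notum. The strand setting of the counting is not given in the sources used here. Whether reads of such partners entered the counts of a gene therefore cannot be told.

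Ranked by level, the effector gene came first and the target genes last. On the scale of CPM per kilobase of exon, the mean level over the 15 libraries was 15 for Ctnnb1, 3.42 for Tcf7l2, 3.04 for Rnf43, 1.91 for Znrf3, 1.37 for Tbx3, 1.12 for Notum, 0.627 for Axin2, 0.122 for Lgr5, 0.0572 for Nkd1 and 0.0539 for Sp5. Ctnnb1 stood above Tcf7l2, and Axin2 above Lgr5, in 15 of 15 libraries. Notum stood above Axin2 in 14 of 15 libraries, Rnf43 above Znrf3 in 13, Lgr5 above Nkd1 in 12 and Znrf3 above Tbx3 in 11. The closest neighbours were Tcf7l2 and Rnf43, in this order in 9 of 15 libraries, Tbx3 and Notum in 8 and Nkd1 and Sp5 in 9. The receptor-clearing ligases Rnf43 and Znrf3 were thus more abundant per length than the targets Notum, Axin2 and Lgr5, and Lgr5, Nkd1 and Sp5 were each at 0 in at least 1 library.

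How ploidy relates to expression is asked by setting 4n-whole against 2n-whole, and here 5 of the 9 tested Wnt genes rose: Axin2, Lgr5, Tbx3, Rnf43 and Notum. They were higher in 4n-whole by 1.71-fold (Rnf43) to 4.39-fold (Lgr5), while none of the 9 was lower past the test. Across all genes, 1.74% met both thresholds (adjusted p under 0.05 and absolute log2 fold change above 0.5) with higher levels in 4n-whole and 1.73% with higher levels in 2n-whole. With mitochondrial genes left out of the counts, the same 5 genes were called, and without the mouse in the model Tbx3 alone was called. The median log2 fold change of the 9 genes was 0.81, beside -0.007 for all genes tested.

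Tbx3, a T-box transcription factor of pericentral hepatocytes, had the smallest p of the 9. Its level was 1.87, 3.17, 5.22 and 4.94 CPM in the 2n-whole libraries of mice 1 to 4, and 17.8, 8.30, 17.2 and 19.5 CPM in their 4n-whole libraries. Every 4n-whole library was above every 2n-whole library, with mouse 2 the lowest of the 4n-whole libraries and mouse 1 showing the widest gap. The means were 3.80 ± 1.57 and 15.7 ± 5.03 CPM (SD, n = 4 each), and the log2 fold change was 2.07 with an SE of 0.214. The quasi-likelihood test of edgeR gave an adjusted p of 4.5e-07 (Benjamini-Hochberg).

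Axin2, a scaffold of the destruction complex and the most widely used readout of the pathway, was at 1.21, 2.05, 2.64 and 2.56 CPM in 2n-whole and at 8.39, 3.41, 5.44 and 9.07 CPM in 4n-whole. The groups did not overlap, and the 4n-whole values fell into a low library of mouse 2, an intermediate one of mouse 3 and high ones of mice 1 and 4. The log2 fold change was 1.62 (SE 0.316, adjusted p = 0.00228, edgeR), with a rise in 4 of 4 mice. Rnf43, the ubiquitin ligase that removes Frizzled, stood at 12.1, 17.2, 14.2 and 11.1 CPM in 2n-whole and at 20.4, 27.3, 25.0 and 20.3 CPM in 4n-whole. It gave a smaller but tighter difference, again without overlap, of 0.77 on the log2 scale (SE 0.137, adjusted p = 0.000809, edgeR).

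Notum, the secreted enzyme that strips the lipid from Wnt ligands, was at 3.43, 4.41, 4.70 and 4.80 CPM in 2n-whole and at 7.21, 6.09, 7.73 and 9.77 CPM in 4n-whole. These groups did not overlap either, and the log2 fold change was 0.84 (SE 0.232, adjusted p = 0.032, edgeR). Lgr5, the R-spondin receptor, was at 0.271, 0, 1.04 and 0.546 CPM in 2n-whole and at 2.63, 0.401, 2.05 and 1.90 CPM in 4n-whole. Here the groups overlapped, because the 4n-whole library of mouse 2 lay below the 2n-whole libraries of mice 3 and 4, although Lgr5 was higher in 4n-whole within each of the 4 mice. Its log2 fold change of 2.13 had an SE of 0.643 and an adjusted p of 0.0489 in edgeR's test, just inside the threshold. The call of Lgr5 was lost without mouse 1 (adjusted p = 0.177, edgeR) or mouse 4 (0.157), and that of Notum without mouse 4 (0.243). Of the 9 tested genes, 4 (Axin2, Tbx3, Rnf43 and Notum) had every 4n-whole library above every 2n-whole library, as did 2.71% of all tested genes.

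**Figure D1:**
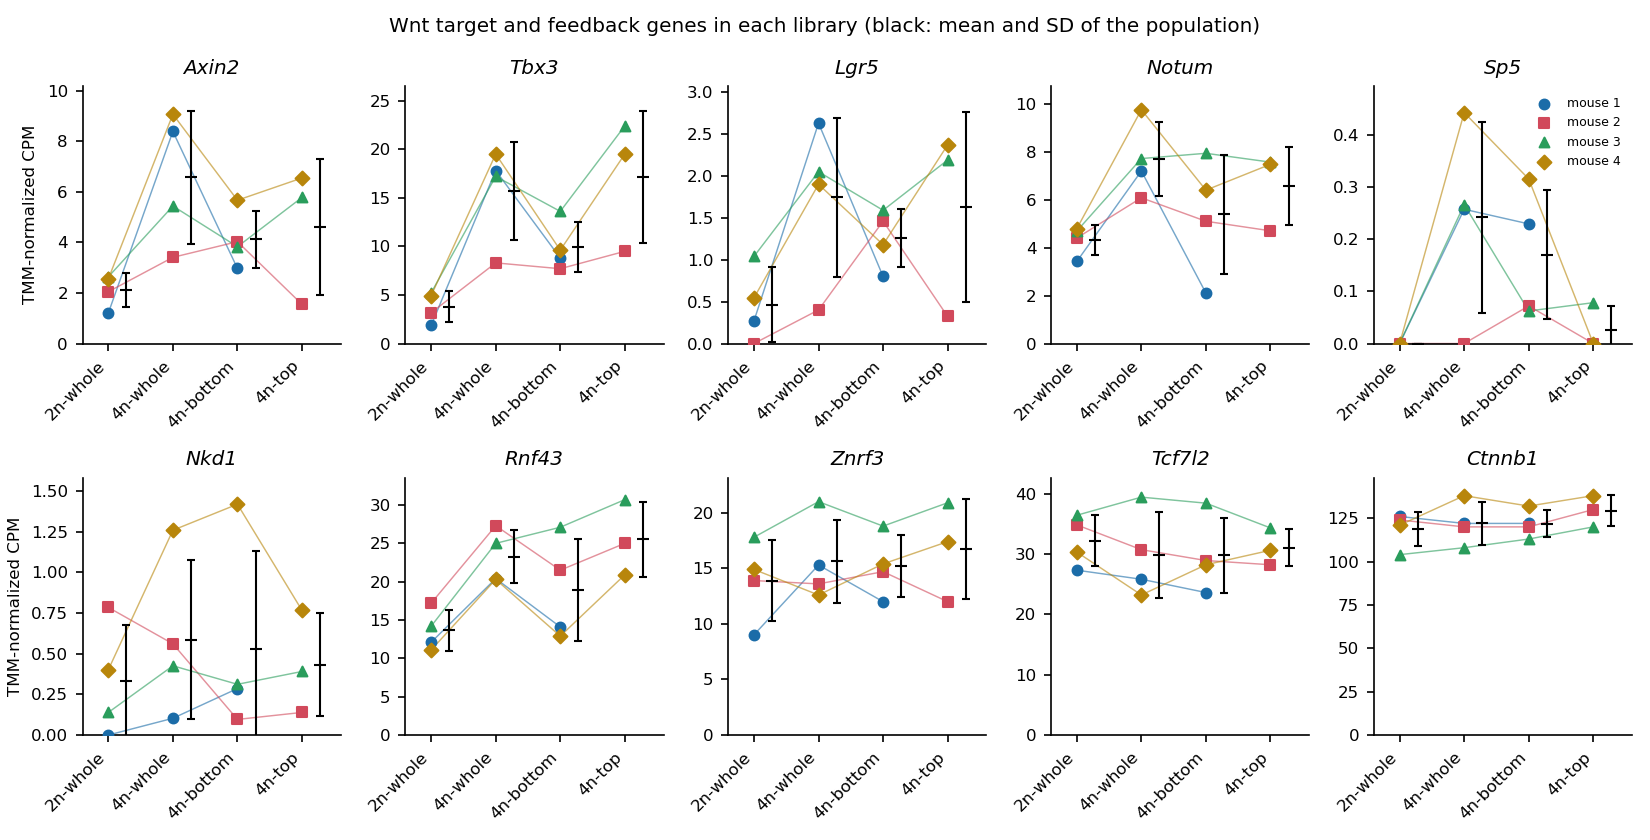
Each panel plots 1 gene, with TMM-normalized CPM on the vertical axis from 0 and the 4 populations on the horizontal axis. Symbols and lines mark the mice, and black bars show the mean and SD of each population over 4 mice (3 in 4n-top), cut off at 0. In Tbx3 the 2n-whole libraries lie at 1.87 to 5.22 and the 4n-whole libraries at 8.30 to 19.5, while the lines of Ctnnb1 stay between 104 and 138.

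Sp5, a zinc finger repressor that is itself a Wnt target, was close to the floor and is described by its counts. No read was counted in any of the 4 2n-whole libraries, where the floor of 3 counts over the group is 0.0219 CPM. The 4n-whole libraries of mice 1 to 4 had 10, 0, 10 and 14 counts, the 4n-bottom libraries 8, 3, 2 and 12, and the 4n-top libraries of mice 2 to 4 had 0, 2 and 0. Pooled over libraries, 4n-whole reached 0.256 CPM (exact Poisson 95% interval 0.177 to 0.357), 11.7-fold the 2n-whole floor. The pooled 4n-bottom level was 0.17 CPM (0.11 to 0.251), 7.79-fold that floor. These folds rest on the pooled values and are not lower limits, and the intervals leave out the spread between mice. The 2 counts of 4n-top gave 0.0205 CPM (0.00248 to 0.074), a value at which no difference from 2n-whole could be detected at this depth. With the filter on low counts lifted, edgeR's test gave Sp5 an adjusted p of 0.281 for 4n-whole and 0.587 for 4n-bottom against 2n-whole, so its pattern did not pass the test across mice. ComBat-seq followed by DESeq2, the study's order of steps, called Sp5 in both of these comparisons. Most low counts in these libraries were even numbers, so counting intervals may be too narrow.

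The other 4 Wnt genes did not pass the test. Znrf3, the ligase related to Rnf43, was at 9.02, 13.9, 17.8 and 14.9 CPM in 2n-whole and at 15.3, 13.6, 21.0 and 12.6 CPM in 4n-whole, higher in 2 of 4 mice. Its log2 fold change of 0.18 had a 95% interval from -0.169 to 0.537. That of Rnf43 ran from 0.459 to 1.09, so the intervals overlapped, and the difference between the 2 genes was not tested. Tcf7l2, the main TCF factor of the liver, was at 27.3, 34.8, 36.4 and 30.3 CPM in 2n-whole and at 25.8, 30.7, 39.4 and 23.2 CPM in 4n-whole, with a log2 fold change of -0.13 (interval -0.392 to 0.133).

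Ctnnb1 was the steadiest of the 10 genes, with means of 119 ± 10.2 CPM in 2n-whole and 122 ± 12.7 CPM in 4n-whole (SD, n = 4 each). Its libraries read 126, 124, 104 and 121 CPM in 2n-whole and 122, 120, 108 and 138 CPM in 4n-whole. The groups overlapped almost completely, and the log2 fold change of 0.04 had a 95% interval from -0.159 to 0.231. Nkd1, which binds Dishevelled, was near the floor at 0, 0.785, 0.139 and 0.402 CPM in 2n-whole and 0.103, 0.561, 0.426 and 1.26 CPM in 4n-whole. At that depth its interval ran from -1.41 to 3.04 on the log2 scale and allows a large change in either direction.

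Set against 2n-whole, the 4n-bottom population had 1 call. Tbx3 rose, at 8.80, 7.70, 13.6 and 9.61 CPM in 4n-bottom, above all 2n-whole libraries, with a log2 fold change of 1.42 (SE 0.212, adjusted p = 0.00042, edgeR). Calls with the higher level in 4n-bottom made up 0.234% of all genes, and those with the higher level in 2n-whole 0.229%. Of all tested genes, 1.69% had every 4n-bottom library above every 2n-whole library. Axin2 was at 2.97, 4.03, 3.83 and 5.67 CPM in 4n-bottom, which again did not overlap with 2n-whole. Its log2 fold change of 0.98 had an unadjusted p of 0.004 and an adjusted p of 0.232, and it did not pass. Lgr5 (0.800, 1.46, 1.59 and 1.18 CPM) and Rnf43 (14.1, 21.5, 27.1 and 12.9 CPM) were higher than in 2n-whole in 4 of 4 mice. Their log2 fold changes were 2.05 and 0.43, and neither passed, with adjusted p of 0.241 and 0.231 by edgeR. Without mouse 2, whose 2n-whole library had no Lgr5 count, the log2 fold change of Lgr5 was 0.98, and without mouse 3 it was 2.8. Notum, at 2.11, 5.11, 7.95 and 6.41 CPM, overlapped with 2n-whole and was lower than it in mouse 1.

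In 4n-top, with 3 mice, both Tbx3 and Rnf43 rose against 2n-whole. Tbx3 was at 9.49, 22.4 and 19.5 CPM in mice 2, 3 and 4, and Rnf43 at 25.0, 30.7 and 20.9 CPM. For both, every 4n-top library was above every 2n-whole library, as for 4.82% of all tested genes. The log2 fold changes were 2.08 for Tbx3 (SE 0.225, adjusted p = 2.55e-06, edgeR) and 0.83 for Rnf43 (SE 0.151, adjusted p = 0.00179, edgeR). Calls with the higher level in 4n-top made up 0.44% of all genes, and those with the higher level in 2n-whole 0.52%. Axin2 was split between mice, at 1.55 CPM in 4n-top of mouse 2, below the 2.05 CPM of 2n-whole of that mouse, and at 5.78 and 6.55 CPM in mice 3 and 4. Its log2 fold change of 0.94 gave an adjusted p of 0.246. Without mouse 2 it was 1.41 with an adjusted p of 0.00778 in edgeR's test. Without mouse 4, Rnf43 lost its call in this comparison (0.766, adjusted p = 0.0545, edgeR). Lgr5, at 0.323, 2.19 and 2.37 CPM, and Notum, at 4.71, 7.58 and 7.49 CPM, were higher in all 3 mice without passing the test, with log2 fold changes of 1.86 and 0.42. The 3 comparisons above share the 2n-whole libraries, so they are not independent of each other.

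**Figure D2:**
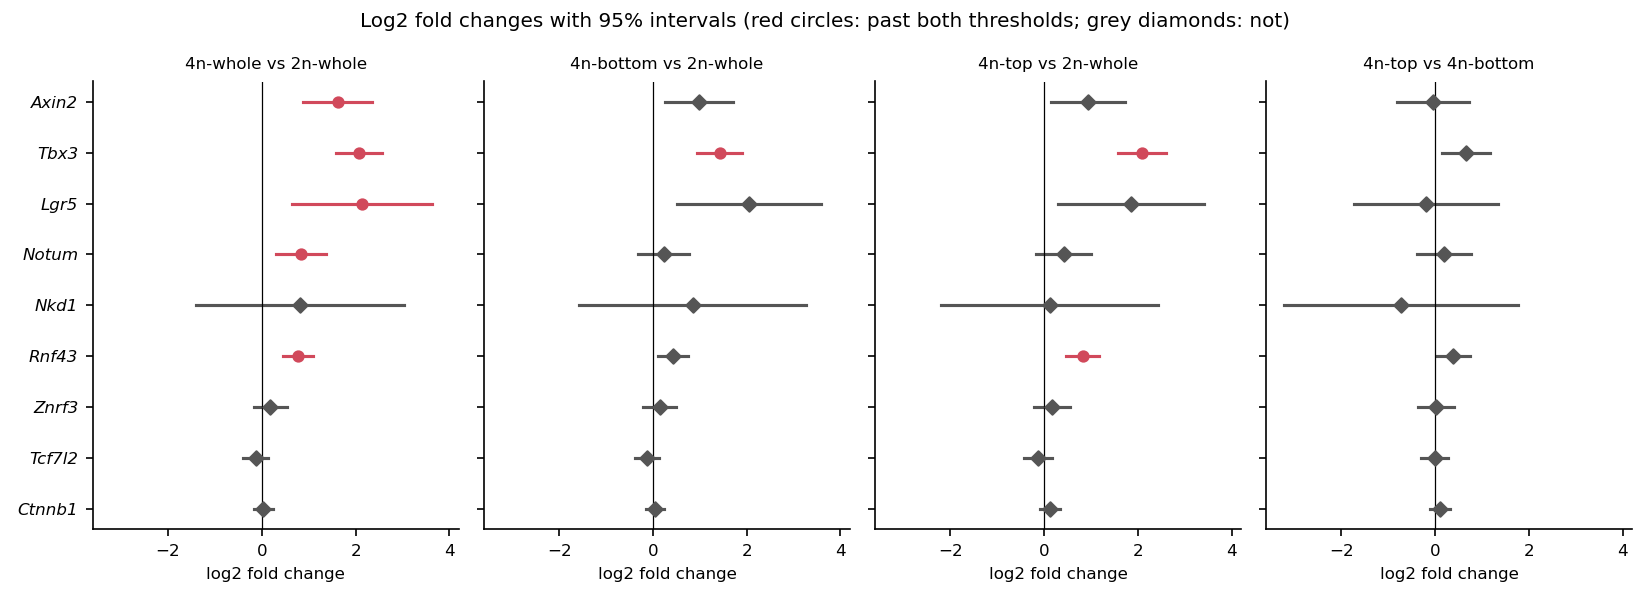
The 4 panels show 4 comparisons, with the log2 fold change of the first population over the second on the horizontal axis and the 9 tested genes on the vertical axis. Points are edgeR estimates, bars are 95% intervals, and red circles are genes past both thresholds. Tbx3 is red in the 3 comparisons with 2n-whole at 2.07, 1.42 and 2.08, and no gene is red in 4n-top against 4n-bottom.

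Between 4n-top and 4n-bottom, which differ in nuclear configuration at the same ploidy, none of the 9 genes was called by edgeR, and every adjusted p was 1. Of all genes, 0.0114% were called in either direction. At an unadjusted p under 0.05 there were 2 of the 9 genes, beside 488 of the 17488 tested, and the fits by DESeq2 also called 0 of the 9. Tbx3 was higher in 4n-top in 3 of 3 mice, with within-mouse log2 ratios of 0.298, 0.713 and 1.01 in mice 2, 3 and 4, and a fitted log2 fold change of 0.66 (95% interval 0.154 to 1.17, unadjusted p = 0.0056 in edgeR's test). Rnf43 was also higher in 3 of 3 mice, with ratios of 0.216, 0.177 and 0.692 and a fitted value of 0.39 (interval 0.0488 to 0.736, unadjusted p = 0.0137 in edgeR's test). In both genes the populations overlapped.

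Axin2 and Lgr5 pointed in opposite directions in different mice. For Axin2 the within-mouse log2 ratio of 4n-top over 4n-bottom was -1.33 in mouse 2 and 0.581 and 0.204 in mice 3 and 4. For Lgr5 it was -1.89 in mouse 2 and 0.438 and 0.946 in mice 3 and 4. The fitted values were -0.04 for Axin2 and -0.19 for Lgr5, and without mouse 2 they were 0.46 and 0.831, with an adjusted p of 1 for both in edgeR's test. The intervals for Notum (-0.386 to 0.767) and Znrf3 (-0.361 to 0.413) span 0, and those of Tcf7l2 (-0.292 to 0.285) and Ctnnb1 (-0.118 to 0.311) are the narrowest of the 9. For Nkd1 the interval from -3.22 to 1.76 leaves almost any change possible.

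Pericentral metabolic genes of the same mice are given beside these ratios. Of the 20 in the list, 16 had a positive fitted log2 fold change in 4n-top against 4n-bottom, with a median of 0.283 beside 0.00101 for all genes. Glul, glutamine synthetase of the hepatocytes that touch the central vein, was the only 1 of 20 pericentral genes called between 4n-top and 4n-bottom. Its ratios were -0.649, -1.12 and -1.0 in mice 2, 3 and 4, with a fitted log2 fold change of -0.90, at an adjusted p of 0.0499 by edgeR, and it was not called without mouse 3 or without mouse 4. Its neighbour in expression, the glutamate transporter Slc1a2, had ratios of -1.23, -0.894 and -1.24. Cyp2e1, a cytochrome of the wider pericentral zone, pointed the other way at 0.0951, 1.10 and 0.632, as did Cyp1a2 at 0.124, 0.745 and 0.507, and Rgn at 0.469, 1.11 and 0.782. Oat was split between mice, at -0.474, 0.074 and 0.0144. Tbx3 and Rnf43 thus had the sign of Cyp2e1 and Cyp1a2 in all 3 mice, and the opposite sign to Glul. This is a description of signs in the same libraries, with no test of the difference between genes.

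**Figure D3:**
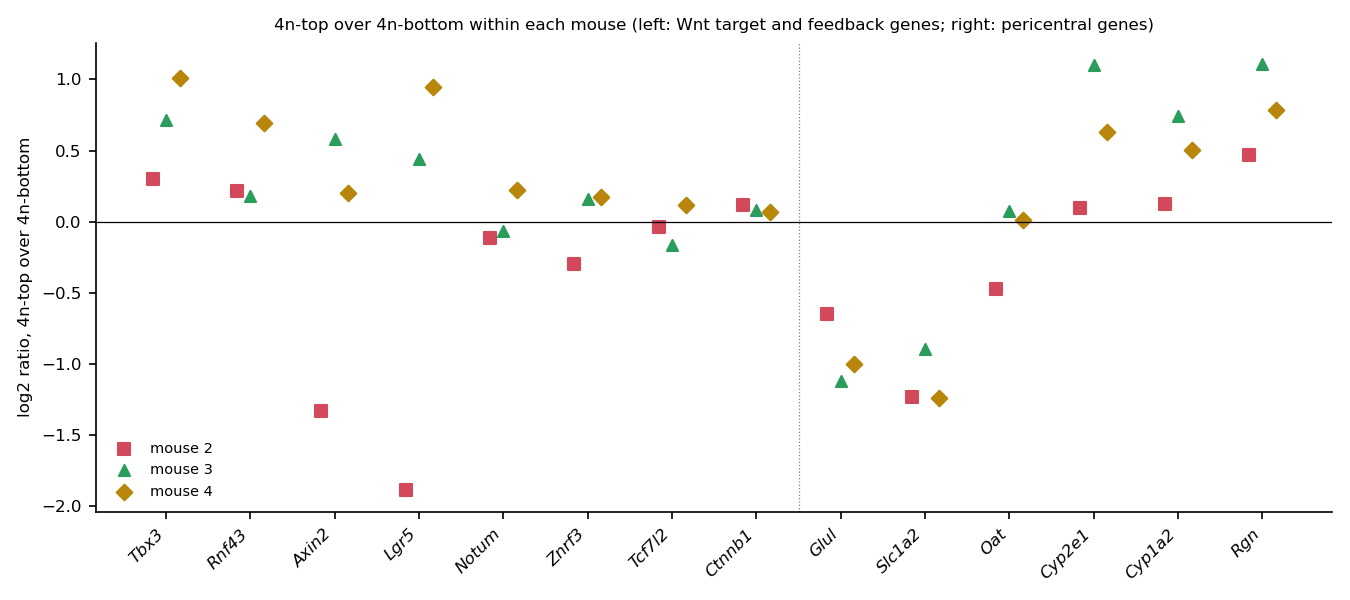
The vertical axis is the log2 ratio of CPM in 4n-top over 4n-bottom within a mouse, and each symbol is 1 of 3 mice. Wnt target and feedback genes with usable levels are on the left and pericentral metabolic genes on the right of the dotted line. Tbx3, Rnf43 and Ctnnb1 are above 0 in all 3 mice, Glul and Slc1a2 are below 0 in all 3, and Axin2 and Lgr5 are below 0 in mouse 2 alone.

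The whole tetraploid gate was also compared with its parts. Between 4n-whole and 4n-bottom, 0.00572% of all genes and 0 of the 9 Wnt genes were called by edgeR, and DESeq2 called 0 of the 9 as well. Tbx3, Notum, Rnf43 and Axin2 had unadjusted p of 0.00337, 0.0151, 0.0185 and 0.0445 in edgeR's test, with log2 fold changes of 0.65, 0.60, 0.34 and 0.64, among 974 genes with an unadjusted p under 0.05. Adjusted over all genes they ranged from 0.598 to 0.882. Between 4n-whole and 4n-top, 0% of all genes and 0 of the 9 were called by edgeR and by DESeq2, with 0 of the 9 and 700 of all genes at an unadjusted p under 0.05.

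In a test of any difference among the 4 populations, 3 of the 9 genes passed, beside 1.95% of all genes. These were Tbx3 (adjusted p = 1.24e-06, rank 17 of the 17488 genes), Rnf43 (0.00194, rank 111) and Axin2 (0.0252, rank 233) in edgeR's test. Notum and Lgr5 had adjusted p of 0.169 and 0.217 and did not pass. By mean CPM, 2n-whole was the lowest population for 9 of the 10 genes, the exception being Tcf7l2, where it was the highest. Axin2, Lgr5 and Notum had the order 4n-whole, 4n-top, 4n-bottom and 2n-whole, whereas Tbx3 and Rnf43 had 4n-top first and 4n-whole next. None of the 4n populations differed from another past the threshold in any of the 9, and Tbx3 alone differed from 2n-whole past the threshold in all 3 comparisons with it. For Rnf43 the lower level of 2n-whole passed against 4n-whole and 4n-top, and for Axin2, Lgr5 and Notum against 4n-whole only.

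Mice differed in a way that recurred across populations. Znrf3 and Tcf7l2 were highest in mouse 3 in all 4 populations, and Ctnnb1 was lowest in mouse 3 in all 4. Rnf43 was lowest in mouse 4 in all 4 populations. Lgr5 and Tbx3 were lowest in mouse 2 in 3 of the 4 populations. The 4n libraries of mouse 2 also had the highest summed endothelial markers of their populations, at 34.8 CPM in 4n-whole, 26.4 in 4n-bottom and 19.8 in 4n-top, and its 4n-whole library had the lowest total count. In 4n-whole and 4n-top, mouse 2 had the lowest Axin2 and Lgr5 levels, while in 4n-bottom its levels of both were the next to highest of the 4 mice. The part of the endothelial markers and of depth in these values was not tested.

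Upstream of these targets, the rest of the pathway was compared between 2n-whole and 4n-whole. Of 86 genes for ligands, R-spondins, receptors, secreted antagonists, the destruction complex and TCF partners, 51 were tested. Of these, 2 rose and 0 fell, beside 1.74% of all genes called higher in 4n-whole and 1.73% called higher in 2n-whole. By adjusted p alone, 3 were higher and 2 lower in 4n-whole. The median log2 fold change of the 51 was -0.0151, beside -0.007 for all genes. In the other comparisons, edgeR called 0 of the 51. The genes that rose were Fzd8, a Frizzled receptor, from 11.8 ± 3.11 to 17.2 ± 2.03 CPM (log2 fold change 0.57, adjusted p = 0.0348, edgeR), and Tle2, a corepressor of TCF factors, from 15 ± 8.1 to 26.1 ± 7.9 CPM (0.85, adjusted p = 0.006, edgeR).

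Ligands were scarce in these hepatocytes. Of 21 genes for Wnt ligands and their release, 6 passed the filter and none was called. Wnt5b, a ligand best known for signalling without beta-catenin, had the smallest p of the 6, at 4.65 ± 0.284 CPM in 2n-whole and 7.58 ± 2.31 CPM in 4n-whole (log2 fold change 0.68, adjusted p = 0.102, edgeR). The endothelial ligands Wnt2 and Wnt9b and the R-spondin Rspo3 stayed at or under 0.962 CPM in every library, and Rspo3 was at 0 in all 4n-bottom and 4n-top libraries. Lgr4, the R-spondin receptor that hepatocytes share more widely than Lgr5, was at 64.2 ± 13.1 CPM in 2n-whole and 63.3 ± 8.85 CPM in 4n-whole, with a log2 fold change of -0.02. Of 12 secreted antagonists, 2 were tested (Sfrp1 and Dkk3) and neither was called.

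Among receptors, Lrp5, a co-receptor, had an adjusted p of 0.0309 in edgeR's test at a log2 fold change of 0.35, under the limit on the fold change. All 15 genes of the destruction complex and its transducers were tested and none was called, the smallest adjusted p being 0.0717 for Dvl1, a Dishevelled protein, with a log2 fold change of 0.39. Csnk1a1, the kinase that primes beta-catenin for degradation, differed by -0.33 on the log2 scale (adjusted p = 0.0874, edgeR). Tle4, another corepressor, and Ctnnbip1, which blocks beta-catenin from TCF factors, passed the adjusted p alone, at -0.49 (0.0212) and -0.42 (0.0358) in edgeR's test, and did so in the direction of lower levels in 4n-whole.

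Further downstream, of 18 other Wnt targets, most of them known from other tissues, 10 were tested, 7 had a positive log2 fold change in 4n-whole against 2n-whole, and the median was 0.299 beside -0.007 for all genes. Of these 10, 1 was called in each direction, with Lect2, a secreted hepatocyte protein, higher in 4n-whole (log2 fold change 1.03, adjusted p = 0.0148, edgeR) and Sox9, a transcription factor of biliary and progenitor cells, lower (-0.62, adjusted p = 0.00229, edgeR). Jun, a subunit of the AP-1 transcription factor, passed the adjusted p alone (log2 fold change 0.41, adjusted p = 0.0148, edgeR). The fall of Sox9 went with the lower cholangiocyte markers of 4n-whole given above, whose part in it was not tested. Pericentral metabolic genes that depend on Wnt moved together: 17 of 20 rose in 4n-whole, beside 1.74% of all genes. Their median log2 fold change was 1.54, beside -0.007 for all genes. Among them, Glul rose from 40.7 ± 19.1 to 103 ± 55.4 CPM (log2 fold change 1.30, adjusted p = 1.35e-06, edgeR), Cyp2e1 by 1.71 and Cyp1a2 by 1.65 on the log2 scale.

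The same 20 genes had 10 calls in 4n-bottom and 15 in 4n-top against 2n-whole, all of them higher in the 4n population. Of all genes, 0.234% were called higher in 4n-bottom and 0.44% higher in 4n-top. Of 18 periportal genes, 6 fell in 4n-whole, beside 1.73% of all genes called higher in 2n-whole. Among the 6 were Cyp2f2, a periportal cytochrome (-0.73), Apoa4, an apolipoprotein (-1.37), and Aldh1b1, an aldehyde dehydrogenase (-1.16). The median of the 18 was -0.261, beside -0.007 for all genes. Ass1, a urea cycle enzyme of the periportal zone, had -0.24 with an adjusted p of 0.0545 in edgeR's test and did not pass. That pericentral genes are higher in 4n-whole than in 2n-whole is a fact of the same libraries as the Wnt genes, and whether the sorted cells differed in lobular position cannot be told apart from a difference in Wnt reading in cells of the same position.

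**Figure D4:**
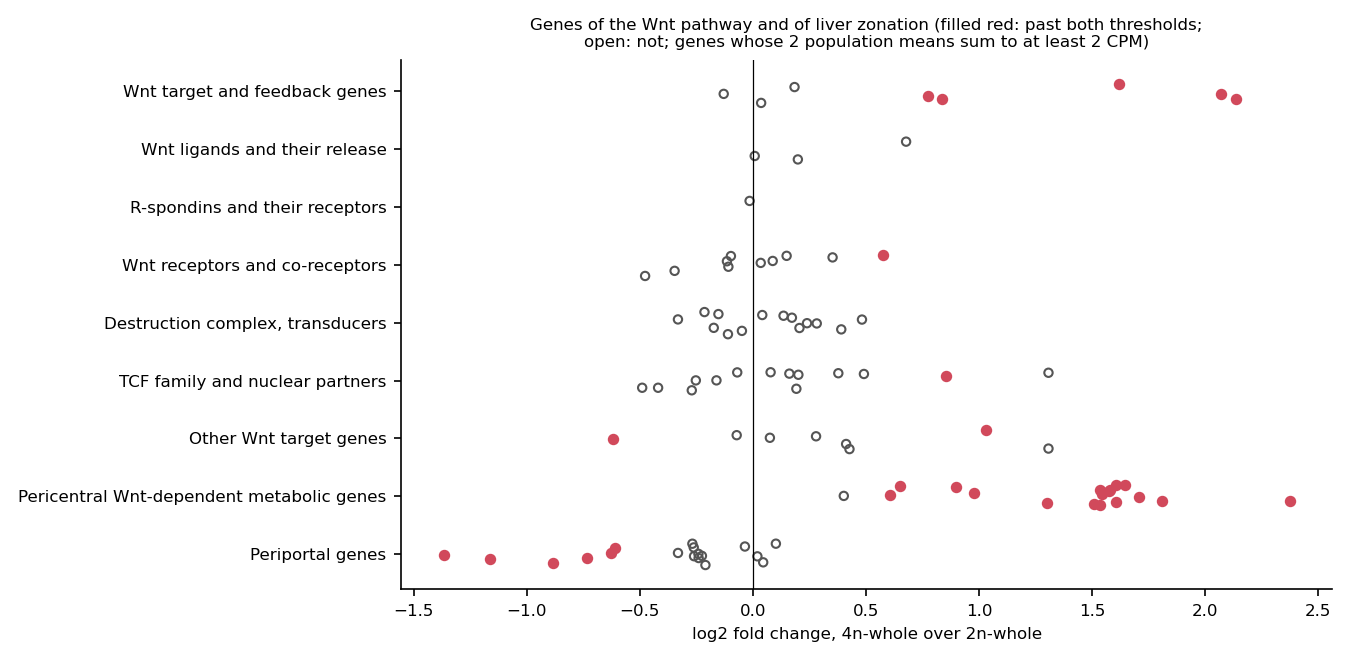
Each point is a tested gene, placed by its log2 fold change of 4n-whole over 2n-whole on the horizontal axis and by its gene list on the vertical axis. Filled red points passed both thresholds, and genes whose population means summed to under 2 CPM are left out. The Wnt target and feedback genes and the pericentral genes have 5 and 17 red points, all to the right, while the lists of ligands, R-spondins and the destruction complex have 0.

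Genes whose pattern was most like that of Axin2 and Tbx3 were sought among genes with a mean log2 CPM of at least 3, after the effect of the mouse was removed. For Axin2, over 15 libraries and 7372 genes, the 5 highest Pearson correlations were with Oat, ornithine aminotransferase (0.925), Mup17, a major urinary protein (0.921), Cyp2c38, a cytochrome (0.908), Rrp36 (0.903) and Nr1i3, the nuclear receptor CAR (0.901). For Tbx3 they were with Cyp26a1, which degrades retinoic acid (0.984), Lifr, a cytokine receptor (0.964), Cyp7a1, the first enzyme of bile acid synthesis (0.958), Gulo, the last enzyme of vitamin C synthesis (0.956), and Aldh3a2, a fatty aldehyde dehydrogenase (0.954). The 15 libraries share mice and fall into 4 populations, so these values describe these libraries and were not tested.

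The same measure was taken between the Wnt genes, where genes that rose over the same libraries correlate in part for that reason. Axin2 had a correlation of 0.835 with Tbx3, 0.751 with Lgr5 and 0.725 with Notum, and Tbx3 one of 0.892 with Rnf43. Znrf3, which was not called, had 0.673 with Axin2, 0.568 with Tbx3, 0.487 with Lgr5, 0.366 with Rnf43 and 0.337 with Notum. Lgr5 and Notum had 0.537 with each other. On ranks (Spearman) the order differed, at 0.736 for Lgr5 with Notum, 0.596 for Znrf3 with Axin2 and 0.518 for Znrf3 with Tbx3. By Pearson correlation, Axin2 had 0.193 with Ctnnb1 and -0.341 with Tcf7l2. Towards the zonation landmarks, Axin2 had 0.873 with Cyp2e1, and Tbx3 had 0.936 with Cyp1a2 and -0.741 with Cyp2f2.

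**Figure D5:**
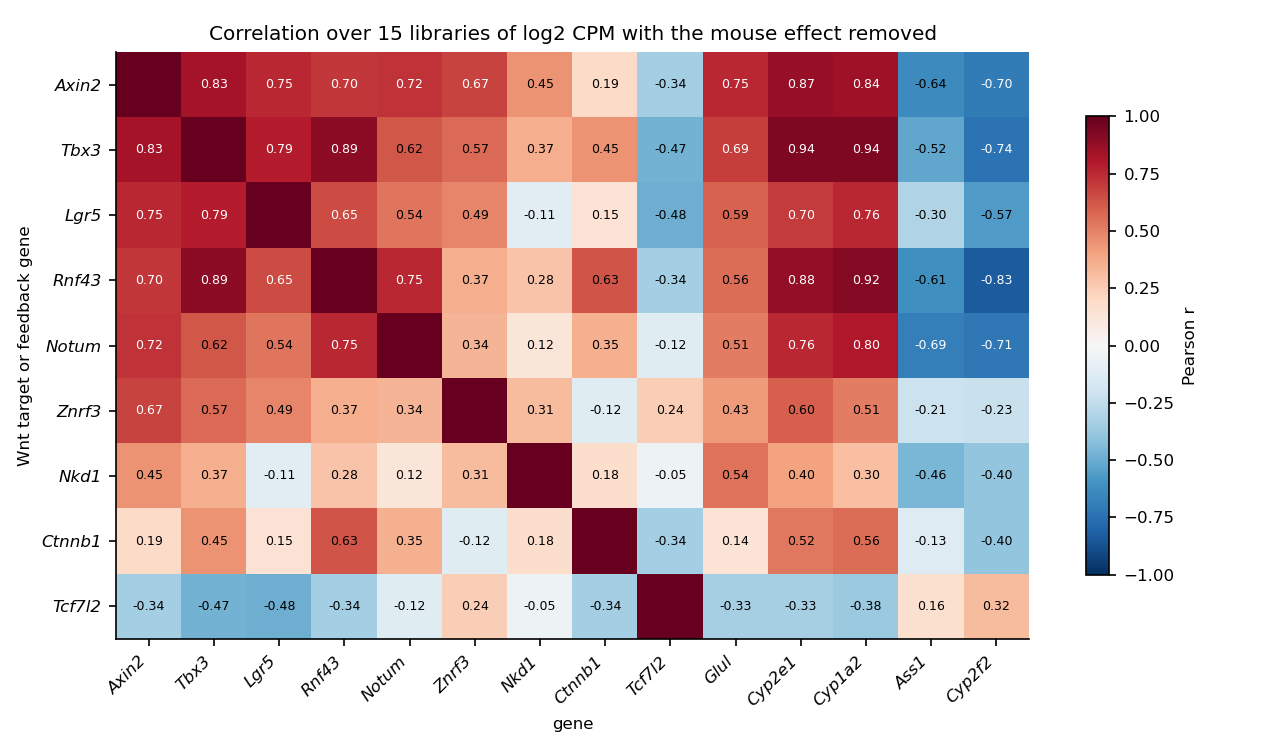
Cells give the Pearson correlation over 15 libraries of log2 CPM with the effect of the mouse removed, between the 9 tested Wnt genes (rows) and the same genes and 5 zonation landmarks (columns), from -1 (blue) to 1 (red). The upper left block of Axin2, Tbx3, Lgr5, Rnf43 and Notum is red, whereas Tcf7l2 is mostly blue, at -0.341 with Axin2.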

How the data were processed

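Sequencing libraries were made from total RNA of sorted mouse hepatocytes. The authors deposited raw counts per gene, from reads aligned to GRCm39, and per the submitters' processing notes the tools were STAR 2.7.11a and featureCounts (Subread). The annotation, strand setting and handling of read pairs are not given in the sources used here. Among counts of 1 to 10, 74.2 to 81.4% per library were even. Symbols were matched to GENCODE M39.

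The 15 libraries were fitted together in R 4.3.3 (edgeR 4.0.16, quasi-likelihood F tests) with terms for population and mouse, after TMM normalization and the default filter on low counts (minimum count 10, minimum total 15). The Benjamini-Hochberg adjustment was made over 17488 genes. A call needed an adjusted p under 0.05 together with a log2 fold change beyond 0.5 in either direction, as in the study. SEs were derived from the F statistics, and 95% intervals from the SE and 8 residual degrees of freedom. Within-mouse ratios used a pseudocount of 0.1 CPM. Levels per kilobase used the union of annotated exons. For correlations, log2 CPM (prior count 2) was adjusted for the mouse with limma 3.58.1. The steps were also run on simulated counts in which 200 genes were changed in 4n-whole, and read in 4n-whole against 2n-whole. Genes with low mean counts were not among those changed. The run therefore does not cover genes near the floor or the other comparisons.

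Subject numbers in the labels gave the mouse. Residuals from the population means correlated within a mouse at 0.158 on average (0.0845 to 0.227 over 21 pairs, across genes). No value was taken for pairs of different mice, so this does not check the pairing. Alternatives were no replicate block, DESeq2 1.42.0 with the block, ComBat-seq (sva 3.50.0) followed by DESeq2, size factors of DESeq2 used by edgeR, counts halved, the filter on low counts lifted, a fit of only the populations compared, calls by adjusted p alone, and each mouse left out. Leaving out mitochondrial genes was added after seeing the data.

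Named genes are the 10 Wnt genes, the genes called in each pathway list or otherwise up to 3 with the smallest p, the 5 genes most like Axin2 and Tbx3, and 5 zonation landmarks. Oat, Rgn and Slc1a2 within mice, Wnt2, Wnt9b, Rspo3, Lrp5, Tle4, Ctnnbip1 and Jun were named after their values were seen. The genes and lists were chosen with earlier results of these data known.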

Additional observations from a re-analysis of the deposited data

Results flagged for a closer look

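Of 29 groups of 4 libraries examined, 1 held a library far from the other 3. Nkd1 was at 1.42 CPM in the 4n-bottom library of mouse 4, and the nearest of the other 3 libraries was at 0.312 CPM, a gap of 0.837 of the range of the group, above Dixon's critical value for 4 samples. Chance alone marks about 1 in 20 such groups. The same mouse also had the highest Nkd1 level in 4n-whole and 4n-top, at 1.26 and 0.767 CPM.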

How the results depend on the processing

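Without the replicate block, that is without the mouse in the model, 1 of the 9 Wnt genes (Tbx3) was called in 4n-whole against 2n-whole in place of 5, 0 in place of 1 in 4n-bottom against 2n-whole, 1 in place of 2 in 4n-top against 2n-whole, and 1 in place of 3 among the 4 populations, while 40 of all genes were called in 4n-whole against 2n-whole in place of 607. Pathway and zonation genes called without the replicate block were 8 in place of 27 in 4n-whole against 2n-whole and 0 in place of 1 in 4n-top against 4n-bottom. With the 2 compared populations alone, 3 of the 9 were called in 4n-whole against 2n-whole (Axin2, Tbx3 and Rnf43). ComBat-seq followed by DESeq2 called 2 genes, Sp5 included, in 4n-bottom against 2n-whole and 5 among the 4 populations. Lgr5 in 4n-whole against 2n-whole was past the threshold in 6 of 12 alternatives, and lost its call with DESeq2 size factors (adjusted p = 0.0512), with counts halved (0.0551), without mouse 1 (0.177) and without mouse 4 (0.157) in edgeR's test. Notum lost its call without mouse 4 (0.243). Tbx3 kept its call in 4n-whole against 2n-whole in 12 of 12. With each mouse left out in turn, 3 to 5 of the 9 were called in 4n-whole, 1 to 1 in 4n-bottom and 1 to 3 in 4n-top against 2n-whole, 2 to 3 among the 4 populations, and 24 to 31 pathway genes in 4n-whole against 2n-whole. Calls over all genes in the same fits varied as well. They numbered 244 to 1025 in 4n-whole, 49 to 111 in 4n-bottom and 98 to 238 in 4n-top against 2n-whole, and 151 to 585 among the 4 populations. The 1 pathway gene called in 4n-top against 4n-bottom (Glul) became 4 with DESeq2 and the block, 4 with ComBat-seq and DESeq2, 10 without the filter, 7 with the 2 populations alone and 0 with counts halved, and 0 to 13 with a mouse left out, the 13 without mouse 2. Over all genes, calls in this comparison numbered 2 in the main fit and 0 to 29 with a mouse left out. No alternative called any of the 9 in 4n-top against 4n-bottom, 4n-whole against 4n-bottom or 4n-whole against 4n-top.

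Signs turned only where no value passed the threshold. In 4n-whole against 2n-whole, leaving out a mouse moved Znrf3 between -0.0105 (without mouse 1) and 0.312 and Ctnnb1 between -0.0227 (without mouse 4) and 0.0629 (log2 fold changes). In 4n-top against 4n-bottom, the fit without the replicate block gave 0.156 for Axin2, 0.359 for Lgr5 and 0.0573 for Tcf7l2. There, leaving out a mouse moved Axin2 between -0.376 and 0.46, Lgr5 between -0.78 and 0.831, Tcf7l2 between -0.0847 and 0.0689 and Znrf3 between -0.068 and 0.17, with Axin2, Lgr5 and Tcf7l2 (0.0228) turning without mouse 2, Tcf7l2 and Znrf3 (-0.0275) without mouse 3 and Znrf3 without mouse 4. Nkd1 ranged from -0.0939 (without mouse 1) to 2.3 in 4n-bottom and from -0.52 (without mouse 3) to 1.52 in 4n-top against 2n-whole, where it was also below 0 with counts halved (-0.0362), without mouse 1 (-0.327) and without mouse 4 (-0.123). Among the 4n-whole comparisons with 4n-bottom and 4n-top, for genes not given with a p above, 24 of 60 and 17 of 108 values changed sign and 0 passed. The cause of these changes was not tested. Depth limits Sp5, Nkd1 and Lgr5 most, which had between 0 and 102 counts per library, and 4n-top has 3 mice.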
